A study of Mus musculus with 6 samples.

Results

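FOXO transcription factors and the enzymes that remove reactive oxygen were examined in mouse hematopoietic stem cells (HSCs) with and without IRF1. The genes were chosen by name: Foxo1, Foxo3 and Foxo4, the thioredoxin inhibitor Txnip, the enzyme genes Sod1, Sod2, Cat, Gpx1 and Gpx4, and the antioxidant transcription factor Nfe2l2. All 10 symbols were found among the 26264 gene rows of the series, and all 10 passed the filter on low values, a mean normalized count of at least 10.

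Bulk RNA-seq was performed on HSCs sorted from bone marrow of untreated female mice, 8 weeks old, to compare WT with IRF1 KO cells. The 3 WT mice were C57Bl/6, and the 3 IRF1 KO mice were of the strain B6.129S2-Irf1tm1Mak/J. Any difference in strain background would go with genotype and cannot be told apart from loss of IRF1. Each mouse gave 1 library. The deletion is carried in the whole body, so the HSCs matured among other cells that also lacked IRF1, and effects inside and outside the HSC cannot be told apart. Libraries are called here by the replicate numbers 2, 3 and 4 of the labels.

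FOXO factors act downstream of phosphoinositide 3-kinase and AKT. When AKT is active it phosphorylates them, and they leave the nucleus; when it is not, they switch on genes for cell cycle arrest, nutrient sensing, autophagy and detoxification of reactive oxygen. In HSCs they are known for guarding quiescence, and mice without them lose stem cells under oxidative stress. Superoxide dismutases turn superoxide into hydrogen peroxide, which catalase, glutathione peroxidases and peroxiredoxins then remove, while NRF2 (Nfe2l2) drives many of the genes that feed these enzymes.

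Reads assigned to genes numbered 59658080, 45332573 and 43267486 in WT replicates 2, 3 and 4. In the IRF1 KO replicates 2, 3 and 4 they numbered 43138521, 57281017 and 45129929. Values below are normalized counts, which are reads divided by the size factor of the library. Fold changes are differences of log2(normalized count + 1), IRF1 KO minus WT, from a limma fit of all 17404 genes that passed the filter, with Benjamini-Hochberg adjustment over those genes.

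Irf1 itself had 10122, 11120 and 12057 normalized counts in WT and 9267, 9524 and 9287 in IRF1 KO HSCs. Every IRF1 KO library lay below every WT library, and the IRF1 KO mean was 84.3% of the WT mean (log2 fold change −0.24 ± 0.09 SE, limma adjusted p = 0.170). Reads were thus still assigned to the gene in the knockout mice. A count over the whole gene includes any exon that the allele leaves in place, so it is no test of the genotype.

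HSC markers were present in every library. Kit, the stem cell factor receptor and the most abundant of 9 markers, had 83185, 84044 and 80517 normalized counts in WT and 77902, 88715 and 79909 in IRF1 KO HSCs. Of these 9, Fgd5 and Procr were higher in IRF1 KO HSCs at an adjusted p under 0.05 by limma (log2 fold changes 0.83 and 0.52), against 1.73% of all genes tested. Ly6a, which encodes Sca-1, was lower (−0.43), against 1.49% of all genes tested. Fgd5 and Procr kept their calls with any library left out, while Ly6a lost its call without WT replicate 3 or IRF1 KO replicates 2 or 4 (limma adjusted p 0.0786, 0.115 and 0.112). The summed level of the 9 was 194532, 199589 and 181871 in WT and 192806, 216493 and 196037 in IRF1 KO libraries.

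WT replicate 4 stood apart from the other 5 libraries in S100a8, S100a9, Ngp, Camp and Ltf, which are 5 of 8 neutrophil markers. Ngp, a neutrophil granule protein, had 2535 normalized counts there, against 30.4 and 24.8 in the other WT libraries and 62.9, 90.7 and 127 in IRF1 KO. The summed level of the 8 was 6657, 5203 and 14274 in WT and 8136, 8341 and 10809 in IRF1 KO libraries. Its most abundant gene was Prtn3, which was higher in IRF1 KO HSCs (0.53, limma adjusted p = 0.0334), with the call lost without WT replicate 3 (0.13) or IRF1 KO replicates 2 or 4 (0.0619 and 0.17). The 3 FOXO and antioxidant genes with the smallest p and the FOXO target list are therefore also given without WT replicate 4.

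None of the 10 genes reached an adjusted p under 0.05 in the limma fit, a threshold that 3.22% of all genes tested passed. At an unadjusted p under 0.05 there were 3, Foxo1, Foxo3 and Txnip, all higher in IRF1 KO HSCs, where 16.5% of all genes tested lay. DESeq2 on the recovered reads gave 2 of the 10, Txnip and Foxo1, with 9.79% of its genes called, and edgeR gave 0, with 3.31% called. The median log2 fold change of the 10 was −0.0003, beside −0.0028 over all genes tested, and without WT replicate 4 again 0 of the 10 were called, against 5.77% of all genes in that fit.

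Foxo1, a main AKT-regulated forkhead factor, had 2442, 2478 and 2194 normalized counts in WT replicates 2, 3 and 4. In IRF1 KO replicates 2, 3 and 4 it had 2877, 2946 and 2963. The 3 IRF1 KO libraries were close together and all above WT, a pattern of non-overlap seen upward in 10.6% of all genes tested. The difference was 0.31 ± 0.09 on the log2 scale (95% interval 0.10 to 0.51), with a limma adjusted p of 0.104. DESeq2 gave an adjusted p of 0.0328, and the range over all 16 alternatives was 0.0328 to 0.318. Without WT replicate 4 the difference was 0.25 and the limma adjusted p 0.155.

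Foxo3, the family member most closely tied to HSC maintenance, had 607, 658 and 554 normalized counts in WT and 684, 783 and 983 in IRF1 KO HSCs. All IRF1 KO values were again above WT, but replicate 2 only narrowly and replicate 4 by far the most. The log2 difference was 0.42 ± 0.16 (95% interval 0.07 to 0.76, limma adjusted p = 0.195, range over alternatives 0.0798 to 0.632). Without IRF1 KO replicate 4 it was 0.27, and without WT replicate 4 it was 0.35 (limma adjusted p = 0.26).

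Foxo4, the third FOXO factor, was barely expressed, with 32.1, 22.5 and 33.4 normalized counts in WT and 18.1, 16.4 and 22.8 in IRF1 KO HSCs. The genotypes overlapped, since IRF1 KO replicate 4 was above WT replicate 3. Between 17 and 39 reads stood behind each value, and the log2 difference of −0.58 ± 0.53 had an interval from −1.73 to 0.56 (limma adjusted p = 0.670).

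Per kilobase of the longest annotated transcript, Foxo1 was the leading FOXO gene in WT HSCs, at 427 ± 27.9 normalized counts (SD, n = 3). Foxo3 followed at 88.6 ± 7.60 and Foxo4 at 9.28 ± 1.87, with no overlap between neighbours among these 3. Foxo6, a further family member, was at 17.3 ± 13.6 and overlapped Foxo4. The order of the 3 was the same in IRF1 KO HSCs, at 528 ± 8.16, 119 ± 22.2 and 6.05 ± 1.05.

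Txnip binds and inhibits thioredoxin and restrains glucose uptake. Its normalized counts were 30516, 37340 and 37176 in WT and 60842, 37707 and 60014 in IRF1 KO HSCs. IRF1 KO replicates 2 and 4 stood far above WT, whereas replicate 3 lay only just above the highest WT value. The IRF1 KO mean was 151% of the WT mean, at 52854 ± 13124 against 35011 ± 3893 (SD, n = 3 each).

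The log2 difference of Txnip was 0.57 ± 0.16 (95% interval 0.23 to 0.90), and its limma adjusted p of 0.0703 missed the threshold. Whether Txnip passed depended on the libraries used and on the test. Without IRF1 KO replicate 3 the difference was 0.79 and the limma adjusted p 0.00262. Without WT replicate 2 or IRF1 KO replicates 2 or 4 the difference was 0.47, 0.45 and 0.46, and the adjusted p 0.237, 0.273 and 0.296. Without WT replicate 4 they were 0.61 and 0.0553. DESeq2 with all libraries gave 0.00179, edgeR gave 0.0510, and limma with the replicate number as a block gave 0.0378. The range over the 16 alternatives was 0.00179 to 0.404. An exact two-sided permutation test over the libraries gave p = 0.1, the smallest that 3 against 3 allows.

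Over the 6 libraries the 3 tested genes most like Txnip were Mir1894, Sfxn4 and Smarca5-ps, with Pearson r of 0.998, 0.995 and 0.987 among 17403 genes compared. Sfxn4, a mitochondrial sideroflexin, had 717, 784 and 765 normalized counts in WT and 944, 789 and 922 in IRF1 KO HSCs. It thus shared the low IRF1 KO replicate 3. Mir1894 had at most 56 reads in a library. These correlations are descriptions, and the difference between genotypes enters each of them.

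Of the enzymes, Sod1, the cytosolic copper and zinc superoxide dismutase, had 2131, 2032 and 2152 normalized counts in WT and 1780, 2125 and 1953 in IRF1 KO HSCs. Sod2, the mitochondrial manganese enzyme, had 5862, 5671 and 5611 in WT and 4627, 5676 and 5264 in IRF1 KO. For both genes IRF1 KO replicate 2 was the lowest library and replicate 3 lay among the WT values, so the genotypes overlapped. The log2 differences were −0.11 ± 0.10 (95% interval −0.33 to 0.11) and −0.14 ± 0.09 (−0.35 to 0.06). Without IRF1 KO replicate 2 they were −0.0469 and −0.064, and without IRF1 KO replicate 3 they were −0.17 and −0.21.

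Catalase, which splits hydrogen peroxide in peroxisomes, was measured through Cat at 13463, 13217 and 13085 normalized counts in WT and 13376, 14968 and 14653 in IRF1 KO. WT libraries were tight, and IRF1 KO replicates 3 and 4 were above them while replicate 2 was within their range. The log2 difference was 0.11 ± 0.08 (95% interval −0.07 to 0.29).

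Gpx1 encodes the main cytosolic glutathione peroxidase and had the highest mean of the 10 genes in both genotypes, though Txnip was above it in IRF1 KO replicates 2 and 4. Gpx1 had 59717, 68860 and 65368 normalized counts in WT and 50813, 62368 and 59462 in IRF1 KO HSCs, with overlap between the genotypes. Gpx4, which removes lipid hydroperoxides and protects from ferroptosis, had 11106, 11470 and 11430 in WT and 9899, 10811 and 10620 in IRF1 KO. Every IRF1 KO value of Gpx4 was below every WT value, as in 9.27% of all genes tested. The log2 differences were −0.17 ± 0.10 (95% interval −0.40 to 0.05) for Gpx1 and −0.12 ± 0.08 (−0.29 to 0.06) for Gpx4. Without IRF1 KO replicate 2 that of Gpx1 was −0.0837.

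Nfe2l2, which encodes NRF2, had 7601, 7237 and 6916 normalized counts in WT and 7185, 8596 and 8233 in IRF1 KO HSCs. IRF1 KO replicates 3 and 4 were the highest of the 6 libraries and replicate 2 was within the WT range. The log2 difference was 0.14 ± 0.09 (95% interval −0.06 to 0.34). It was 0.086 without IRF1 KO replicate 3 and 0.22 without IRF1 KO replicate 2. Limma adjusted p-values of the 5 enzymes and Nfe2l2 ran from 0.476 to 0.678, and their intervals leave room for differences of up to 0.40 on the log2 scale, in Gpx1.

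IRF1 KO replicate 2 was the lowest IRF1 KO library in each of the 5 enzymes and in Nfe2l2, while it was the highest in Txnip. As a description over 6 libraries, Txnip had a Pearson r of −0.88 with Sod2 and −0.87 with Sod1. Among the enzymes r was 0.95 for Sod1 with Sod2 and 0.94 for Gpx1 with Gpx4, and Cat followed Nfe2l2 at 0.97.

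Per kilobase of transcript in WT HSCs, Gpx1 led at 76326 ± 5447 normalized counts (SD, n = 3). Txnip at 12384 ± 1377 and Gpx4 at 11392 ± 201 came next and did not differ beyond their spread. Cat at 5073 ± 73.4, Sod1 at 3258 ± 99.2, Nfe2l2 at 2930 ± 139 and Sod2 at 1494 ± 34.3 followed, all above Foxo1.

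Genes known to be regulated by FOXO factors, most of them switched on and Ccnd2 repressed, were then read from a list of 30, of which 28 passed the filter. In IRF1 KO HSCs 4 rose at an adjusted p under 0.05, against 1.73% of all genes tested, and 0 fell, against 1.49%. Their median log2 fold change was 0.22, and 13 of the 28 had all IRF1 KO libraries above all WT libraries, against 10.6% of all genes tested, while 2 had them all below, against 9.27%. DESeq2 called 11 of the list and edgeR 5, against 9.79% and 3.31% of all genes in either direction. The edgeR calls were all higher in IRF1 KO HSCs, while those of DESeq2 were mostly but not all higher. Without WT replicate 4 the median was 0.32 and 7 of 27 rose, against 2.58% of all genes tested in that fit.

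S1pr1, the sphingosine 1-phosphate receptor that guides cells out of tissues into blood, had 2726, 2115 and 2344 normalized counts in WT. In IRF1 KO HSCs it had 3677, 3525 and 4217, well clear of WT. It rose by 0.67 ± 0.11 on the log2 scale (limma adjusted p = 0.00476, range over alternatives 3.14e-06 to 0.194) and kept its call when any single library was left out.

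Pdk4, a pyruvate dehydrogenase kinase that keeps pyruvate out of the mitochondrial citrate cycle, had 220, 219 and 155 normalized counts in WT and 447, 483 and 344 in IRF1 KO HSCs. The lowest IRF1 KO value was above the highest WT value by more than the spread within WT. It rose by 1.10 ± 0.22 (limma adjusted p = 0.0151), the largest rise among the 4. Its adjusted p was 0.0757 without IRF1 KO replicate 2 and 0.0584 without IRF1 KO replicate 3, within a range of 4.32e-05 to 0.171 over all alternatives.

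Cited2, a CBP/p300-binding regulator needed for HSC maintenance, had 9619, 10235 and 9242 normalized counts in WT and 14572, 12469 and 11782 in IRF1 KO HSCs. IRF1 KO replicate 2 was the highest and no values overlapped, for a rise of 0.41 ± 0.10 (limma adjusted p = 0.0318). The adjusted p was 0.112 without WT replicate 2, 0.137, 0.0511 and 0.0532 without IRF1 KO replicates 2, 3 and 4, and between 0.00155 and 0.289 over all alternatives.

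Ulk1, the kinase that starts autophagy, had 5588, 4824 and 6010 normalized counts in WT and 7765, 6493 and 7620 in IRF1 KO HSCs. The genotypes were separate, with the low values in replicate 3 of each. The rise of 0.42 ± 0.10 was near the threshold (limma adjusted p = 0.0457). It was at 0.107 and 0.179 without WT replicates 2 and 3, at 0.181 and 0.197 without IRF1 KO replicates 2 and 4, and between 0.00501 and 0.322 over all alternatives.

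Sestrins are FOXO and p53 targets that restrain mTORC1 and help regenerate peroxiredoxins, and they were looked at after their values were seen. Sesn2 had 1633, 1646 and 2008 normalized counts in WT and 2377, 2329 and 2333 in IRF1 KO HSCs, with a log2 difference of 0.42 ± 0.11 (limma adjusted p = 0.0525, range over alternatives 0.00794 to 0.278). Sesn1 had 10523, 10455 and 12487 in WT and 12926, 13742 and 14611 in IRF1 KO (0.31 ± 0.09, limma adjusted p = 0.104, range over alternatives 0.0225 to 0.400). Without WT replicate 4 the limma adjusted p was 0.0139 for Sesn2 and 0.0225 for Sesn1. All 3 sestrin genes had every IRF1 KO library above every WT library, as had 10.6% of all genes tested. Sesn3 was at 225 to 285 normalized counts in IRF1 KO against 198 to 206 in WT.

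Other list genes with the same separation, also named after their values were seen, were Cdkn1a, Irs2, Ccng2, Rbl2, Bnip3 and Map1lc3b. Cdkn1a, the cell cycle inhibitor p21, had 245, 175 and 144 normalized counts in WT and 287, 351 and 313 in IRF1 KO HSCs (0.78 ± 0.24, limma adjusted p = 0.1, range over alternatives 0.0267 to 0.290). In the opposite direction, Atm, the DNA damage kinase, was lower in all IRF1 KO libraries (1332 to 1575, against 1734 to 1851 in WT). Other list genes, named after their values were seen as well, had overlapping libraries. Among them Cdkn1b, Bbc3 and Gadd45a differed by 0.04, 0.05 and 0.11, and Bcl2l11, Tnfsf10 and Klf2 by −0.08, −0.09 and −0.22. Of the 28 tested genes 21 had a positive and 7 a negative fold change.

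**Figure D1:**
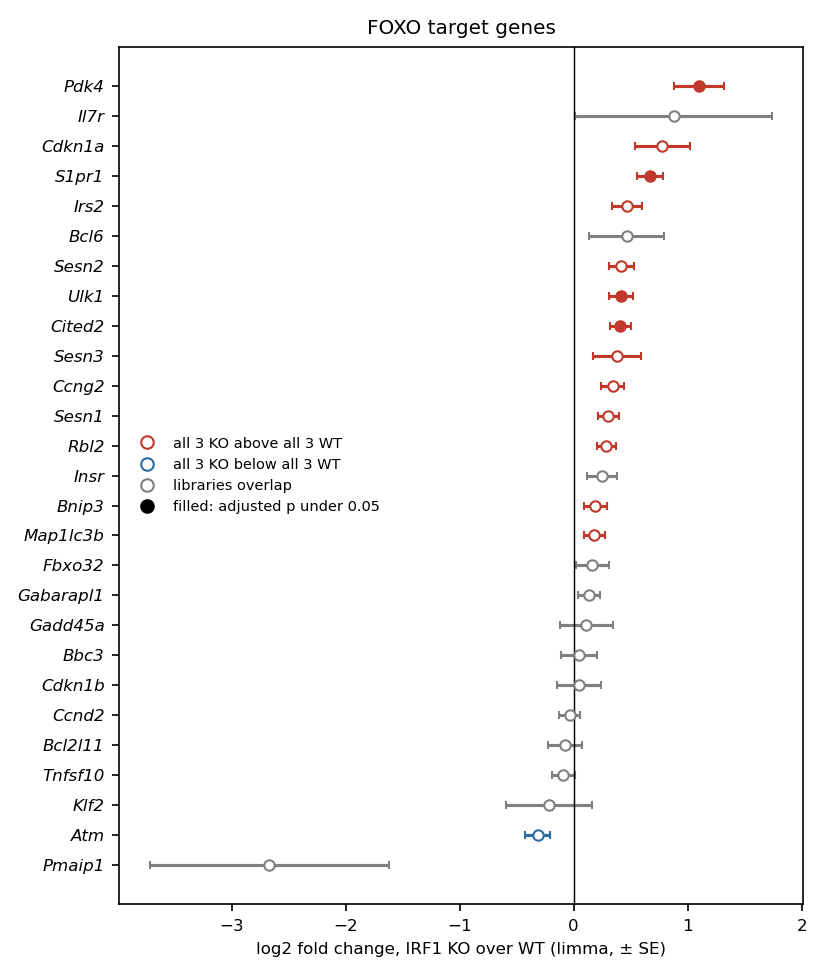
Log2 fold change of 27 of the 28 tested FOXO target genes (x axis, IRF1 KO over WT, ± SE from limma), ordered by value, with color for whether the libraries of the genotypes overlap and filled points for an adjusted p under 0.05. The 4 filled points, Pdk4, S1pr1, Ulk1 and Cited2, lie between 0.41 and 1.10, while Pmaip1, with at most 28.0 normalized counts in a library, has the widest error.

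Cycling genes were read beside the FOXO targets. All 16 of a list of 16 had a negative fold change (median −0.51), and 5 fell at an adjusted p under 0.05 by limma, against 1.49% of all genes tested. Their summed level was 138662, 149728 and 107605 normalized counts in WT and 98958, 103829 and 75473 in IRF1 KO libraries, with Mcm2, a replication helicase subunit, the most abundant. Without WT replicate 4, the lowest of WT, 11 fell, against 3.19% of all genes tested. The 5 genes called with all libraries lost their call without WT replicate 2 (limma adjusted p 0.0548 to 0.176), WT replicate 3 (0.0674 to 0.156) or IRF1 KO replicate 4 (0.0532 to 0.218). With all libraries, DESeq2 called 13 of the 16 and edgeR 5, against 9.79% and 3.31% of all genes. In 10 of the 16 all IRF1 KO libraries lay below all WT libraries, against 9.27% of all genes tested. The part of cell cycling in the FOXO target values was not tested. In bulk RNA, fewer cells of a type and less RNA per cell cannot be told apart.

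Some megakaryocyte and erythroid genes fell as well at an adjusted p under 0.05 by limma, as did 1.49% of all genes tested. Of 6 megakaryocyte and platelet markers, Pf4 and Gp1bb fell (−1.11 and −0.90, limma adjusted p = 0.00334 and 0.00320), and the summed level was 58848, 71525 and 56822 in WT and 51516, 33794 and 46280 in IRF1 KO, led by Itga2b. Of 9 erythroid markers Klf1 fell (−0.72, limma adjusted p = 0.0361), a call lost without WT replicates 2 or 3 (0.117 and 0.109) or IRF1 KO replicates 2 or 3 (0.0583 and 0.07). The summed level was 3755, 4338 and 3072 in WT and 2978, 2465 and 2819 in IRF1 KO, led by Epor. The hemoglobin genes Hbb-bs, Hbb-bt, Hba-a1 and Hba-a2 were listed at 0 in every library. Whether their RNA was absent or their reads were not counted was not tested. Alas2 of the same list had 50.2, 487 and 68.85 normalized counts in WT and 35.2, 221 and 55.0 in IRF1 KO. The part of megakaryocyte and erythroid genes in the values of the FOXO and antioxidant genes was not tested.

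Markers of other blood lineages were at mixed levels. Cd3e of T cells lay between 0 and 7.89 normalized counts. The most abundant markers were Cd79b among 6 B cell genes, Nkg7 among 7 T and NK cell genes and Lyz2 among 6 monocyte and macrophage genes, and of these 19 genes 15 were tested and 0 passed an adjusted p of 0.05 by limma. At an unadjusted p under 0.05, where 16.5% of all genes lay, there was 1 of them, Nkg7, which DESeq2 also called and edgeR did not. Summed levels in WT replicates 2, 3 and 4 and then IRF1 KO replicates 2, 3 and 4 were 2772, 3048, 2667, 3103, 2873 and 3041 for B cells. For T and NK cells they were 3843, 3579, 3761, 3119, 2898 and 3830, and for monocytes and macrophages 24822, 32730, 28634, 28640, 34025 and 29996.

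In a list of 23 genes, the upstream regulators of FOXO and the further family member Foxo6, none passed an adjusted p of 0.05 by limma or edgeR, and 1 was called by DESeq2 (9.79% of all genes). At an unadjusted p under 0.05 there were 5, against 16.5% of all genes tested. The median log2 fold change was −0.01, and 5 genes were separated upward and 2 downward, against 10.6% and 9.27% of all genes. The call by DESeq2 was Pik3cd, the leukocyte catalytic subunit of phosphoinositide 3-kinase, with 20207, 18935 and 19873 normalized counts in WT and 21434, 24260 and 27986 in IRF1 KO HSCs. Its IRF1 KO values were spread widely above a tight WT group (0.31 ± 0.10, limma adjusted p = 0.119; DESeq2 adjusted p = 0.0292, range over alternatives 0.0292 to 0.520). Without IRF1 KO replicate 4 the difference was 0.21.

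Pik3ca, another catalytic subunit, had 4651, 4625 and 4471 normalized counts in WT and 5610, 5045 and 5529 in IRF1 KO (0.23 ± 0.09, limma adjusted p = 0.177). The regulators with the highest counts, the 14-3-3 protein gene Ywhaz and the kinase gene Akt1, had fold changes of −0.10 and −0.02, and both turned positive with quantile normalization.

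In the thioredoxin and peroxiredoxin system, on which Txnip acts, 12 of 14 genes had a negative fold change. The median of the 14 was −0.11, with −0.0487 without IRF1 KO replicate 2 and −0.1777 without IRF1 KO replicate 3. None of the 14 passed an adjusted p of 0.05 in limma, edgeR or DESeq2, and 3 had an unadjusted p under 0.05, against 16.5% of all genes tested. Those were Txnl1, Txn2 and Txn1. Txn1, cytosolic thioredoxin and the direct partner of Txnip, had 8524, 6833 and 8887 normalized counts in WT and 6320, 7353 and 6830 in IRF1 KO HSCs. WT replicate 3 was among the IRF1 KO values, so the genotypes overlapped (−0.24 ± 0.11, limma adjusted p = 0.290).

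Txnl1, a thioredoxin-like protein bound to the proteasome, had 8446, 9291 and 8126 normalized counts in WT and 6594, 7900 and 6812 in IRF1 KO, with no overlap (−0.28 ± 0.09, limma adjusted p = 0.138, range over alternatives 0.0378 to 0.427). Mitochondrial Txn2 was lower in 2 of 3 IRF1 KO libraries than in any WT library (−0.23 ± 0.10, limma adjusted p = 0.268). The most abundant genes, Prdx6 and Prdx1, differed by −0.07 ± 0.10 and −0.18 ± 0.09, and that of Prdx6 turned positive with quantile normalization.

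Arrdc4 is an alpha-arrestin of the same family as Txnip, and both are known targets of the glucose-sensing factor MondoA (Mlxip). It had 3606, 5946 and 5271 normalized counts in WT and 8144, 6058 and 7687 in IRF1 KO HSCs. As with Txnip, IRF1 KO replicates 2 and 4 were high, replicate 3 was just above WT, and WT replicate 2 was the lowest library. The log2 difference was 0.58 ± 0.16 (95% interval 0.24 to 0.92, limma adjusted p = 0.0655).

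Without WT replicate 3, WT replicate 4 or IRF1 KO replicate 3, the limma adjusted p of Arrdc4 was 0.0301, 0.0486 and 0.0442. Without WT replicate 2 or IRF1 KO replicates 2 or 4 it was 0.216, 0.246 and 0.207, and without WT replicate 2 the difference was 0.37. DESeq2 gave 0.00651, and the range over alternatives was 0.00651 to 0.404. Of the 7 alpha-arrestin and MondoA network genes, 0 passed an adjusted p of 0.05 by limma or edgeR, and 1, Arrdc4, had an unadjusted p under 0.05 (16.5% of all genes) and was called by DESeq2 (9.79%). The median of the list was 0.09, with 0.0382 without IRF1 KO replicate 2 and 0.147 without WT replicate 3. Arrdc3, which targets membrane receptors for turnover, had a log2 difference of 0.27 ± 0.14 with overlapping libraries (0.10 without WT replicate 4), and Arrdc1, the most abundant, 0.09 ± 0.09.

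Of 26 genes of the glutathione system 25 were tested, and 1 rose at an adjusted p under 0.05, against 1.73% of all genes. Gstm1, a glutathione S-transferase, had 11090, 8932 and 10717 normalized counts in WT and 13490, 16798 and 14229 in IRF1 KO HSCs, without overlap. It rose by 0.53 ± 0.11 (limma adjusted p = 0.0147), with 0.0583 without WT replicate 3 and 0.000121 to 0.267 over all alternatives. Gstm genes are near-identical copies in a cluster, so reads may be split among them and the value is uncertain. The median of the list was 0.04, with 13 positive and 12 negative fold changes. Gpx2 was listed at 0 in every library.

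Around NRF2, 0 of 22 regulators and targets passed an adjusted p of 0.05 by limma or edgeR, 7 had an unadjusted p under 0.05 (16.5% of all genes) and 1, Sqstm1, was called by DESeq2 (9.79% of all genes). Fold changes were positive for 11 and negative for 11, with a median of −0.0079. Sqstm1, the autophagy receptor p62, had 17912, 19238 and 18920 normalized counts in WT and 21150, 21976 and 23071 in IRF1 KO HSCs (0.24 ± 0.08, limma adjusted p = 0.152; DESeq2 adjusted p = 0.0480, range over alternatives 0.0252 to 0.518). Bach2, a repressor at antioxidant response elements, differed by 0.45 ± 0.17 with 1 overlapping library. Of the ferritin chains, the most abundant genes of the list, Ftl1 was higher in all IRF1 KO libraries (0.23 ± 0.11, limma adjusted p = 0.304, range over alternatives 0.0217 to 0.693) and Fth1 was level (0.01 ± 0.10). Without IRF1 KO replicate 3 the difference of Ftl1 was 0.15.

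Among 12 tested sources of superoxide and partners of SOD enzymes, 0 passed by limma or edgeR, 3 had an unadjusted p under 0.05 (16.5% of all genes) and DESeq2 called 2 (9.79%). Nox4, an oxidase that makes hydrogen peroxide, had 42.8, 53.0 and 66.7 normalized counts in WT and 145, 109 and 134 in IRF1 KO HSCs. The groups were far apart at a low level (1.25 ± 0.34, limma adjusted p = 0.0613, and 0.0347 without WT replicate 4; range over alternatives 0.00576 to 0.235).

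The median of the list of superoxide sources and SOD partners was −0.06, and its most abundant genes, the small GTPases Rac2 and Rac1, differed by 0.01 ± 0.09 and −0.07 ± 0.08.

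Glutathione peroxidases need selenium, and of 19 selenoproteins and their synthesis genes 0 passed an adjusted p of 0.05 by limma, edgeR or DESeq2, with 2 at an unadjusted p under 0.05, against 16.5% of all genes tested. The median was −0.10 (−0.0473 without IRF1 KO replicate 2 and −0.156 without IRF1 KO replicate 3), and 13 of 19 fold changes were negative. Selenom, an endoplasmic reticulum selenoprotein, differed by 0.30 ± 0.11, and Selenos, which takes part in removing misfolded proteins there, by −0.35 ± 0.14. Selenos differed by −0.52 without IRF1 KO replicate 3 and by −0.22 without IRF1 KO replicate 2, with limma adjusted p-values of 0.0493 and 0.615, the ends of the range over alternatives. Selenof and Selenop, the most abundant, differed by −0.16 ± 0.09 and 0.09 ± 0.08.

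With a fold change threshold added, a log2 value beyond 0.58 in either direction beside the adjusted p under 0.05, limma called 333 genes (1.91%). Of the 28 FOXO target genes 2 did, S1pr1 and Pdk4, and of the 10 FOXO and antioxidant genes 0.

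Promoter windows were searched for motifs of these pathways because Txnip and 21 of the 28 FOXO target genes tested had positive fold changes. The other 7 were negative. The motifs were chosen after the values were seen, and matches are descriptions. RefSeq windows (build GRCm38.p6) hold 250 bases before and 50 after a gene start, and 9 of the 10 genes had at least 1, for 12 windows among 32851. Both strands were searched. The forkhead motif GTAAACA was in 3.65% of all windows and, among the 12, in that of Txnip. It was also in 4 of 30 windows of the FOXO target genes (Bbc3, Bcl2l11, Sesn1 and Trim63), of which 24 genes had a window. Bbc3, Bcl2l11 and Sesn1 differed by 0.05, −0.08 and 0.31, and Trim63 was not tested. No match was found for S1pr1, Pdk4, Cited2 or Ulk1.

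A carbohydrate response element, the kind of site MondoA binds, was searched as CACGNG and CNCGNG separated by 5 bases. It was in 0.365% of all windows and, of the 12, again only in that of Txnip. It was in 0 of 10 windows of the alpha-arrestin and MondoA network genes, Arrdc4 included. An antioxidant response element, TGAC and GC separated by 3 bases, was in 12.4% of all windows and in those of Sod1 and Nfe2l2. A repeat of GAAA with 2 bases between, as interferon regulatory factors bind, was in 3.44% of all windows and in 0 of the 12.

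The Txnip sequence is shown because this gene had the largest fold change of the 10 in size among those whose libraries did not overlap, and both motifs are in it. It covers the 250 bases before the gene start at chr3:96557707-96557956, plus strand. Capitals mark the forkhead motif, starting 121 bases before the gene start, and the carbohydrate response element, starting 85 bases before it; the motifs do not overlap.
Txnip: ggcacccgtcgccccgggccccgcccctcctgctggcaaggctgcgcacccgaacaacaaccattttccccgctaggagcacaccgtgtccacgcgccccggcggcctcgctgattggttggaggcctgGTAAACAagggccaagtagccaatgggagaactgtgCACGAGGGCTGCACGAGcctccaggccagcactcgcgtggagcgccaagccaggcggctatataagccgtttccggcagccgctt

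For Sod1 and Nfe2l2, the bases around the antioxidant response element are shown, with the match in capitals, read in the direction of the gene. The Sod1 stretch is chr16:90220681-90220739 on the plus strand, with the match on the opposite strand and 56 bases before the gene start. The Nfe2l2 stretch is chr2:75704870-75704913 on the minus strand, with the match on the strand of the gene and 240 bases before its start.
Sod1: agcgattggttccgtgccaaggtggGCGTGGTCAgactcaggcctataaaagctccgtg
Nfe2l2: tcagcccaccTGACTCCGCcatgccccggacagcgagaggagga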

How the data were processed

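Bulk RNA-seq libraries of 3 WT and 3 IRF1 KO mice were grouped by their labels. The authors used Trim Galore for trimming and HISAT2 for alignment (build mm39 per the submitters' processing notes), then htseq-count and DESeq2 size factors on Galaxy. Strand setting, annotation and versions are not named there. The deposited values are this normalized signal per gene. In every library 100% of values were whole multiples of 1 step (tolerance 0.001 reads), so whole reads were recovered.

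Genes whose normalized counts averaged 10 or more were tested on log2(value + 1) with limma 3.58.1 (R 4.3.3) and an intensity trend. A pseudocount understates fold changes of low genes. edgeR 4.0.16 and DESeq2 1.42.0 on recovered reads, other pseudocounts, filters and scalings, a replicate block and each library left out were alternatives. Same-genotype libraries differed beyond sampling noise (chi-square per gene 15.0 to 27.6). The scripts were tested on simulated data.

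The members and lists were chosen with earlier results of these data known. Named were the 10 genes, Irf1, list genes with an adjusted p under 0.05 and otherwise the 2 with the smallest p and the 2 highest, and the 3 genes most correlated with Txnip. Lengths are those of the longest protein-coding GENCODE vM1 transcript. All 6 library columns were used (0 unused).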

Additional observations from a re-analysis of the deposited data

How the results depend on the processing

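Counts of genes depended on the test. At an adjusted p under 0.05 and a log2 fold change beyond 0.58, limma called 167 genes higher and 166 lower. At the same thresholds there were 7 and 33 without the intensity trend, 295 and 209 with DESeq2, and 83 to 304 higher and 105 to 265 lower with 1 library left out. Genes with an adjusted p under 0.05 numbered 561, against 40 without the trend, 1282 with DESeq2 and 230 (without IRF1 KO replicate 4) to 992 (without WT replicate 4). Of the 10 genes 0 passed, against 1 with quantile normalization (Foxo1), 2 with DESeq2, and 0 to 1 with a library left out. The cause was not tested.

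The list median of FOXO target genes ranged from 0.21 to 0.32 with 1 library left out. That of the FOXO upstream regulators was 0.0474 with quantile normalization and −0.0698 to 0.0197 with a library left out. Medians of other lists near 0 changed sign too: glutathione system (−0.0158, −0.0103 and −0.0276 without WT replicates 2 and 4 and IRF1 KO replicate 3), superoxide sources (0.0099 and 0.019 without WT replicates 3 and 4) and NRF2 genes (0.0225 with quantile normalization, 0.0217 and 0.0216 without WT replicate 3 and IRF1 KO replicate 2). Alternatives were tabulated for only part of the named genes, and signs turned in 6 of those, all near 0. With quantile normalization they were Ywhaz (0.0195), Akt1 (0.11), Prdx6 (0.0584) and Rac1 (0.0076), and with median centring Fth1 (−0.0162) and Rac2 (−0.0161). With a library left out they were Akt1 (−0.0761 to 0.0293), Prdx6 (−0.14 to 0.022), Fth1 (−0.0502 to 0.082) and Rac2 (−0.0469 to 0.0704).

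Different mice carried the same replicate numbers, and deviations of same-numbered libraries correlated at −0.09, 0.25 and 0.15. These values do not settle whether the numbers pair the samples, and the main fit left them unpaired. With the replicate number as a block, 1075 genes had an adjusted p under 0.05, and 1 of the 10, Txnip (limma adjusted p = 0.0378). The 3 libraries per genotype and, for Foxo4, the low reads limit precision.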
